A study of Drosophila melanogaster with 12 samples.

Results

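The response of nuclear chromatin in the libraries labelled fat body was described for adult female Drosophila melanogaster 7 days after an induction of foxo had ended. Chromatin accessibility was measured by ATAC-seq, in which the transposase Tn5 cuts open DNA and leaves sequencing adapters there. All regions of the table labelled fat body that lie on nuclear chromosomes or scaffolds were taken, whatever their counts. These were 3427 of the 3447 regions of that table, and both tables of the series together hold 6353 regions. The comparison used 6 of the 12 libraries, 3 switched and 3 control. Flies of both groups carried S106, a GeneSwitch driver active in the adult fat body and also in the gut, together with UAS-foxo. In such flies the steroid RU486 switches the transgene on. Flies of both groups were mated for 48 h and separated from males. Switched flies were given 200 µM RU486 in the food for 21 days and then moved to food without the drug for 7 days. Control flies of the same genotype are labelled RU486-, although the treatment text is the same for both groups, and they are taken as uninduced here. All flies were reared on 10% yeast and 5% sucrose. RU486 was eaten by the switched flies alone and no group used here was fed the drug without carrying the transgene, so drug and induction cannot be told apart. The labels do not say whether replicates came from separate animals, so the p-values measure the spread between these libraries, which may be technical.

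FOXO is the forkhead transcription factor that insulin signalling holds out of the nucleus: when insulin is low, FOXO enters the nucleus and switches on genes for stress resistance, nutrient sparing and growth restraint. The fly fat body combines roles of liver and adipose tissue, storing fat and glycogen and sensing nutrients, and raised FOXO activity there is known to extend lifespan. In chromatin, open sites gather at promoters and enhancers, while repeats, the Y chromosome and much of the unplaced sequence are heterochromatic and mostly closed. The comparison asks which nuclear regions still differ in accessibility after the inducer has been withdrawn.

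The deposited values are read counts per region. Total counts were 811020 to 977245 in switched libraries, against 1053117 to 1186153 in control libraries. Nuclear regions held 229212, 160218 and 196046 of these counts in switched replicates 1 to 3, against 136786, 129657 and 164720 in control replicates 1 to 3. The nuclear share ran up to 24.17% in switched replicate 3 (95% Clopper-Pearson interval 24.08% to 24.27%) and down to 11.41% in control replicate 2 (11.35% to 11.47%), intervals that cover counting error only. Every switched library was therefore deeper in nuclear counts than 2 of the 3 control libraries, and all class and gene values below were scaled on nuclear counts alone. Switched replicate 3 stood apart from the other 5 libraries. Its 10 most read nuclear regions held 10.6% of its nuclear counts, against 30.2% and 28.3% in switched replicates 1 and 2 and 29.8%, 30.7% and 21.8% in control replicates 1 to 3. The fat body label could be checked at few markers: 3 of 15 fat body markers had a region, namely Lsp2, Lsp1beta and srp, while the yolk protein genes Yp1, Yp2 and Yp3 had 0. Of 26 gut markers 11 had a region. For this reason the tissue is given as labelled fat body.

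More of the regions at and inside genes were read in every switched library than in any control library, while the groups overlapped for regions outside genes. Of the 2012 regions on the chromosome arms 2L, 2R, 3L, 3R and X, 283 were centred within 500 bp of where a protein-coding gene starts or stops (called gene end), 1006 lay elsewhere inside a gene and 723 lay outside genes. The gene table gives only the span of each gene, so start and stop, exon and intron, and UTRs could not be told apart. At least 1 read fell on 268, 246 and 254 of the gene-end regions in switched replicates 1 to 3, against 218, 206 and 208 in control replicates 1 to 3. No switched library overlapped a control library. The same was seen inside genes, where 816, 760 and 747 regions were read in switched libraries, against 677, 635 and 645 in control libraries. Outside genes the counts of regions read were 465, 374 and 342 in switched libraries, against 365, 341 and 366 in control libraries, and the groups overlapped.

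Since deeper libraries read more regions, the expected number was also computed with each library thinned to the smallest count of the class, 14906 counts for gene ends and 35260 inside genes. At equal depth, 89.6% ± 3.96 of the gene-end regions were read in switched libraries, against 74.1% ± 2.51 in control libraries (SD, n = 3 each), a difference of 15.4 percentage points. Inside genes the values were 74.6% ± 3.76 in switched libraries, against 64.3% ± 2.66 in control libraries (SD, n = 3 each), a difference of 10.3 points. Both differences had every switched library above every control library, with an exact two-sided permutation p of 0.1, the smallest that 3 against 3 libraries can give, and 0.16 after Benjamini-Hochberg adjustment over 16 such comparisons. Neither passed the threshold of 0.05, which this design cannot reach. Outside genes 51.3% ± 5.60 of regions were read in switched libraries, against 48.8% ± 1.85 in control libraries (exact permutation p = 0.8). On the 1353 regions of unplaced and random scaffolds 59.7% ± 5.97 were read in switched libraries, against 60.2% ± 2.60 in control libraries (exact permutation p = 1.0). Taken over all nuclear regions at equal depth, 2436, 2202 and 1995 were read in switched libraries, against 2137, 2009 and 2079 in control libraries (exact permutation p = 0.5). Among the classes by place and the scaffolds, the groups were apart in the gene-associated classes alone, where switched replicate 3 stood with the other switched libraries. Whether the classes differed from each other was not tested, and each was thinned to its own smallest count. The nuclear share of all counts was higher in every switched library as well, 16.4% to 24.2% in switched libraries, against 11.4% to 15.6% in control libraries, and its part in the regions read beyond depth was not tested. In bulk tissue, fewer cells of a type and fewer reads per cell cannot be told apart.

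**Figure D1:**
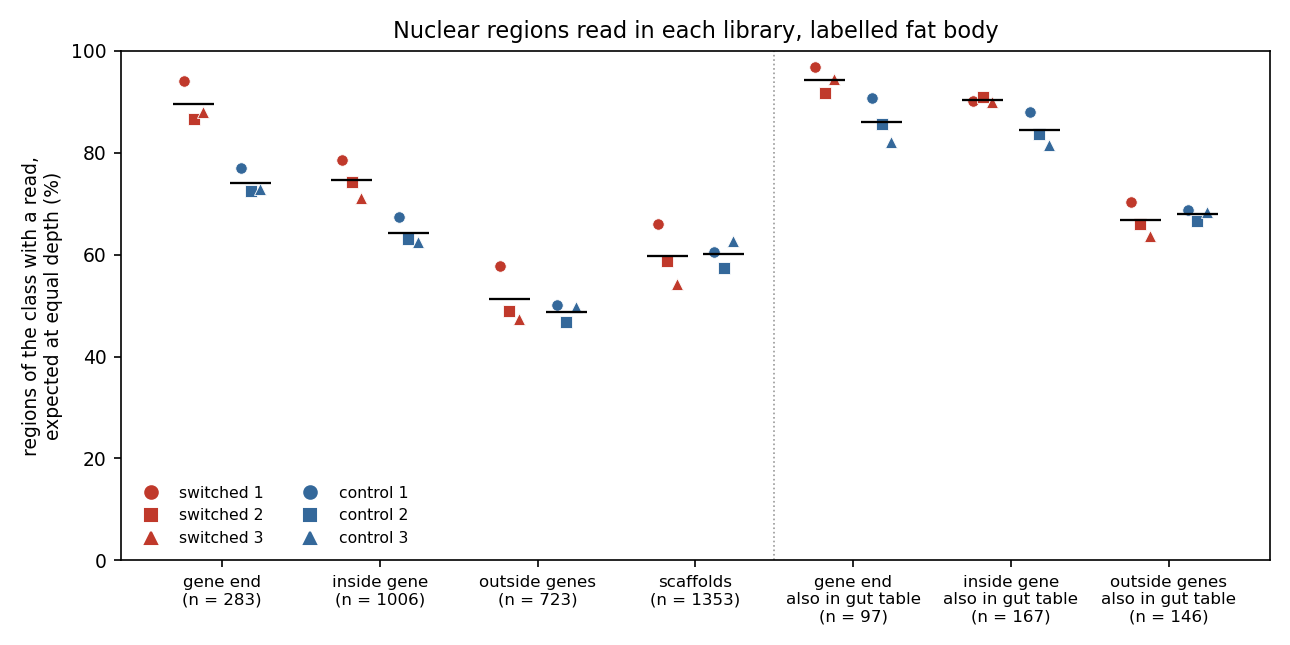
Share of the nuclear regions of each class that had at least 1 read (y axis, percent, expected at equal depth within the class), by place against genes (x axis, with the number of regions); red points are the 3 switched and blue points the 3 control libraries, and black bars are group means. Gene-end and inside-gene regions were read more often in every switched library (means 89.6% and 74.6%, against 74.1% and 64.3% in control), while regions outside genes and on scaffolds overlapped. The same was seen for the regions labelled as also in the gut table. These are regions of the table labelled fat body that overlap a gut region, so an effect of region calling is not removed.

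Whether the authors called regions per library or on pooled libraries is not given in the sources used here, and a region called from the reads of 1 group had to be read there. Regions that overlap one of the table labelled gut were therefore set apart, a step chosen, like the split by place, after the data were seen. They are still regions of the table labelled fat body, so the step cannot remove an effect of how that table was called. Among the 97 gene-end regions that overlap a region of the gut table, 94.4% ± 2.51 were read in switched libraries, against 86.1% ± 4.32 in control libraries at equal depth (SD, n = 3 each). The difference was 8.24 points. For the 186 gene-end regions found in the table labelled fat body alone it was 18.7 points, with 86.2% ± 4.61 read in switched libraries, against 67.6% ± 2.23 in control libraries. Among the 167 regions inside genes that overlap the gut table, 90.4% ± 0.55 were read in switched libraries, against 84.5% ± 3.28 in control libraries. In each of these sets every switched library exceeded every control library (exact permutation p = 0.1, the smallest possible). The 146 regions outside genes that overlap the gut table did not separate, with 66.7% ± 3.40 read in switched libraries, against 67.9% ± 1.12 in control libraries (exact permutation p = 0.6). The part of region calling in these differences was not tested.

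Counted by region, 528 of the 3427 nuclear regions (15.4%) were read in switched libraries alone and 373 (10.9%) in control libraries alone. Most of these were read in a single library, 378 in 1 switched library and 288 in 1 control library. Regions read in all 3 libraries of one group and in 0 of the other numbered 49 for switched and 20 for control. Of the regions of the first set that lie on arms, 27.5% were at gene ends and 60.0% inside genes. The second set had 60.0% of its 20 regions on arms, with 0 at gene ends and 33.3% of its arm regions inside genes. Among all arm regions 14.1% were gene ends, and 1006 of 2012 lay inside genes. The arm regions of the second set were too few to set against these shares. On scaffolds lay 40.0% of the second set, near the 39.5% of all nuclear regions. The first set was also short, with a median length of 73 bp, against 115 bp over all nuclear regions. The 1031 regions read in all 6 libraries held 66.4% to 69.8% of nuclear counts in switched libraries, against 73.0% to 78.9% in control libraries. By gene, 896, 849 and 839 of the 964 protein-coding genes with a region had a read in switched libraries, against 745, 708 and 717 in control libraries. Regions went to the gene they overlap, otherwise to the nearest within 1000 bp.

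The libraries labelled gut, compared in the same way, had lower mean values in switched than in control flies at gene ends and inside genes. At equal depth 68.0% ± 25.0 of gut gene-end regions were read in switched libraries, against 77.8% ± 12.98 in control libraries (SD, n = 3 each), a difference of -9.85 points. Inside genes 63.2% ± 20.8 were read in switched gut libraries, against 74.3% ± 9.21 in control gut libraries. Both gut libraries numbered 1 were shallow, with 22164 and 34316 nuclear counts in switched and control. The difference at gene ends in the libraries labelled fat body exceeded that of the gut by 25.3 points (exact permutation p = 0.14 over 400 relabellings within tissues) and by 19.1 points without the shallow libraries (p = 0.0333 over 120 relabellings). Inside genes the excess was 21.4 points (exact permutation p = 0.1) with all gut libraries, and 15.8 points (p = 0.0333) without the shallow ones. Outside genes it was 10.3 points (exact permutation p = 0.25), and 1.76 points (p = 0.817) without them. Labels were permuted within each tissue, so these p-values assume no effect in both tissues at once, and they are not adjusted for the 6 comparisons made.

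The share of nuclear counts that each class of regions held overlapped between the groups for 13 of 16 classes. Arms held 64.9% ± 9.72 of nuclear counts in switched libraries, against 59.4% ± 2.45 in control libraries (SD, n = 3 each; exact permutation p = 0.5). Scaffolds held 30.8% ± 9.02 in switched libraries, against 34.8% ± 2.56 in control libraries (exact permutation p = 0.9). The wide switched spread came from replicate 3, with 75.6% of its nuclear counts on arms and 20.6% on scaffolds. Switched replicates 1 and 2 had 56.6% and 62.4% on arms, within or near the 56.8%, 61.7% and 59.7% of control replicates 1 to 3, and without replicate 3 the mean scaffold share in switched flies was 1.04 points above control. The Y chromosome held 4.08% ± 0.87 in switched libraries, against 5.52% ± 1.25 in control libraries (exact permutation p = 0.2), in flies labelled female. Chromosome 4, which is largely heterochromatic, held 0.26% ± 0.10 in switched libraries, against 0.32% ± 0.09 in control libraries (exact permutation p = 0.6).

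Of the counts on arms, gene ends held 19.1% ± 4.496 in switched libraries, against 19.4% ± 0.73 in control libraries (exact permutation p = 1.0). More gene ends were read, then, without a larger share of the reads. Regions inside genes held 52.2% ± 4.89 in switched libraries, against 47.3% ± 3.78 in control libraries (exact permutation p = 0.3). Regions outside genes held 28.7% ± 9.29 in switched libraries, against 33.4% ± 3.23 in control libraries (exact permutation p = 0.5), and without switched replicate 3 the difference turned to 0.68 points above control.

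Groups did not overlap for 3 of the 16 classes tested. Regions under 100 bp long held 32.6% ± 1.28 of nuclear counts in switched libraries, against 28.5% ± 2.49 in control libraries. Arm 3L held 10.5% ± 1.70 in switched libraries, against 8.57% ± 1.00 in control libraries, a difference of 1.97 points that was 1.005 points without switched replicate 3. The 907 regions that overlap the gut table held 54.2% ± 2.68 in switched libraries, against 61.9% ± 4.44 in control libraries (SD, n = 3 each). Each had an exact permutation p of 0.1, the smallest possible, and 0.533 after Benjamini-Hochberg adjustment over the 16 classes. None of the 3 passed the test. The share of short regions was the class that differed most from the gut. In the gut libraries it was 4.87% ± 0.74 in switched, against 9.83% ± 2.26 in control flies, so that the difference labelled fat body exceeded that labelled gut by 9.06 points (exact permutation p = 0.005 over 400 relabellings, 0.08 adjusted over 16 classes).

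**Figure D2:**
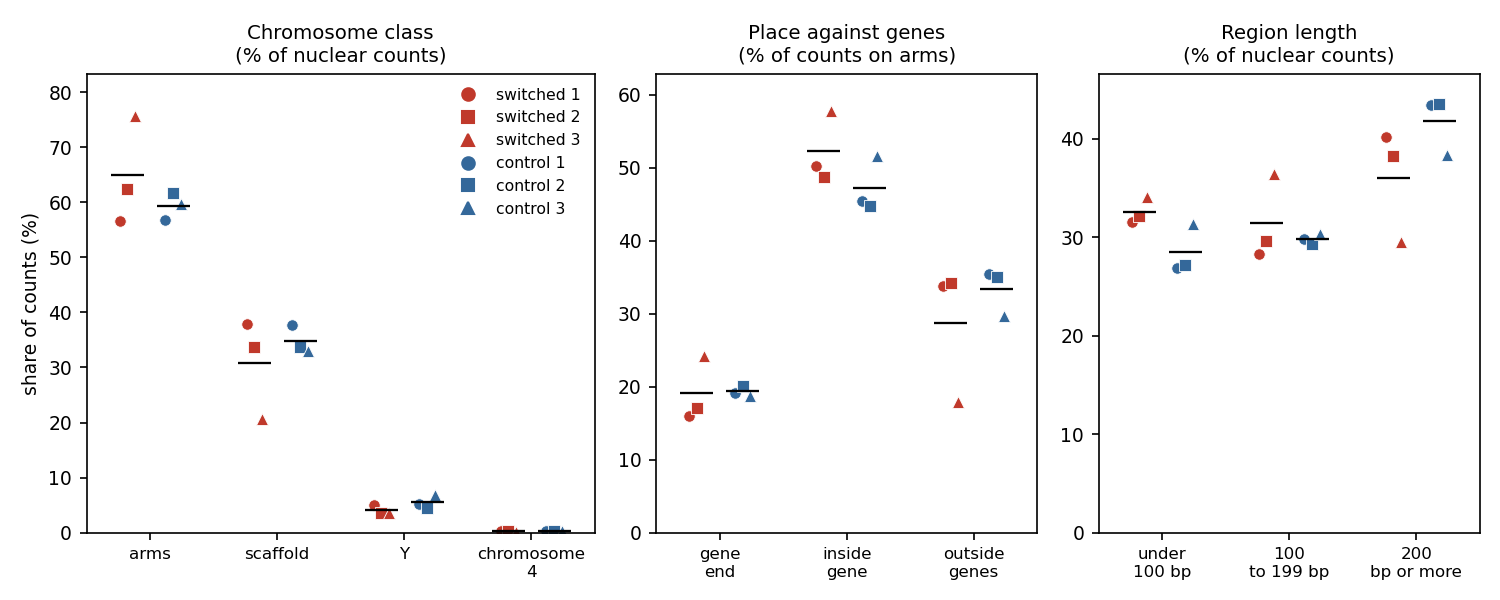
Share of counts held by classes of nuclear regions (y axes, percent; the middle panel is of counts on chromosome arms, the other 2 of nuclear counts) in each library labelled fat body; red points are switched and blue points control libraries, and black bars are group means. Switched replicate 3 (triangles) lay apart on arms, scaffolds and outside genes, and only regions under 100 bp separated the groups among the classes drawn (32.6% in switched, against 28.5% in control).

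A handful of regions held much of every library but one. The region with the highest mean was 385 bp on an unplaced scaffold, with 9.94%, 7.49% and 1.81% of nuclear counts in switched replicates 1 to 3, against 9.78%, 8.48% and 5.09% in control replicates 1 to 3. The next, on X at 22432988 to 22433215 outside genes, held 6.29%, 6.27% and 1.31% in switched libraries, against 6.06%, 7.91% and 4.304% in control libraries. A region of the Y-linked gene Ppr-Y held 3.34%, 2.41% and 1.999% in switched libraries, against 2.95%, 2.84% and 4.55% in control libraries. The groups overlapped at all 3 regions, and switched replicate 3 was the lowest library at each.

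Region by region, edgeR's quasi-likelihood test called 0 of the 1650 regions that passed its filter on low counts (0.0%), with a smallest adjusted p of 0.194. At an unadjusted p under 0.05, 62 regions were higher in switched libraries (3.76% of those tested) and 9 were lower (0.545%). DESeq2 gave an adjusted p to 1628 regions and called 47 higher (2.89%) and 5 lower (0.307%). When control replicate 1, 2 or 3 was left out DESeq2 called 115, 115 and 107 regions higher and 10, 11 and 8 lower. When switched replicate 1, 2 or 3 was left out it called 32, 37 and 45 higher and 19, 14 and 17 lower. Without switched replicate 1, more regions were lower than higher at an unadjusted DESeq2 p under 0.05, with 74 higher and 99 lower. Without any filter edgeR called 10 higher and 4 lower of 3427 regions. CPM of the groups, meaning nuclear counts scaled to a common total with TMM factors, did not overlap at 172 regions higher in switched libraries (10.4%) and 86 lower (5.21%). A filter lets a region pass through the group where it is read, so the same count was taken over the 874 tested regions read in all 6 libraries. There 37 were higher (4.23%) and 44 lower (5.03%). By that count the excess of higher over lower regions was not seen among regions read in every library, while at an unadjusted p under 0.05 these regions gave 10 higher and 1 lower. Fitted on their own they gave 19 higher and 8 lower at that p and 0 called. Libraries varied widely within a group, with a common dispersion of 1.42.

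By class, the 62 regions higher at an unadjusted p under 0.05 lay on arms in 58 cases (93.5%, against 72.8% of tested regions). Of those on arms 39 lay inside genes (67.2%, against 59.4% of tested arm regions) and 7 outside genes. Gene ends held 12 (20.7%, against 21.3% of tested arm regions), which is near the share over all tested. The median length of the 62 regions was 73.5 bp, against 110 bp over all tested regions. Only 3 of them overlapped a region of the gut table (4.84%, against 34.7% of tested regions), and 32 had 0 counts in all control libraries. Of the 9 lower regions 8 lay on arms, 0 at a gene end, too few to set against the share of gene ends above. In 5 of them all switched libraries had 0 counts. Among all 1650 tested regions, 32 had 0 counts in every control library and 5 in every switched library. These passed the filter through 1 group alone, and each had an unadjusted p under 0.05. The counts and classes at this p thus rest in part on the filter. Of the tested scaffold regions 172 had a log2 fold change above 0 and 249 below, whereas on arms 776 were above and 426 below. By arm the share above 0 ran from 56.9% on X to 69.3% on 2R. Among regions read in all 6 libraries the median log2 fold change was 0.09 on arms and -0.19 on scaffolds.

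**Figure D3:**
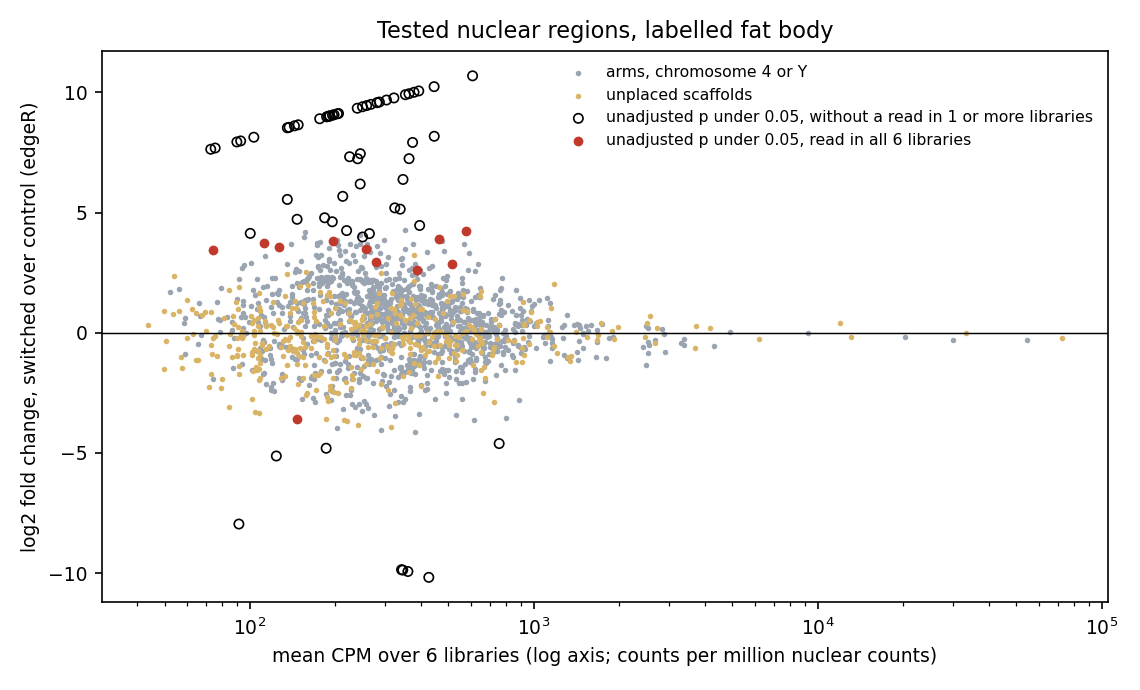
Log2 fold change of switched over control from edgeR (y axis) against mean CPM over the 6 libraries labelled fat body (x axis, log scale) for the 1650 tested nuclear regions; grey points lie on chromosomes, tan points on unplaced scaffolds, open circles mark an unadjusted p under 0.05 without a read in at least 1 library and red points one with reads in all 6. The 62 higher and 9 lower regions at that p were mostly open circles, whose fitted fold changes depend on the value edgeR adds to counts of 0.

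At the head of the ranking by p stood regions read throughout one group and absent or nearly absent from the other. Inside Ank2, which encodes an ankyrin that ties membrane proteins to the cytoskeleton, a 70 bp region (3L, 7702965 to 7703034) had 128, 123 and 107 counts in switched libraries, against 0, 0 and 0 in control libraries. Against a floor of 3 counts summed over the control libraries this was at least 92.7-fold higher, a bound that covers counting error only. Tmtc2, whose mammalian counterpart adds mannose to cadherins, held a region (2L, 935707 to 935858) with 318, 107 and 37 counts in switched libraries, against 0, 0 and 0 in control libraries. At a gene end of Cyt-c1L, which encodes a cytochrome c1-like protein of the respiratory chain, a 70 bp region (3R, 29203056 to 29203125) had 68, 117 and 128 counts in switched libraries, against 0, 0 and 0 in control libraries. Each of these regions was read in all 3 switched libraries and in 0 control libraries. A region on 3L with no gene within 1000 bp (15194298 to 15194368) had 111, 221 and 41 counts in switched libraries, against 0, 0 and 0 in control libraries. Regions at 6 genes complete the 10 higher ones with the smallest p, at Mob2 (at least 169-fold), Taf1 (at least 128-fold), Ppa (at least 112-fold), Eip78C (at least 90.1-fold), lovit and lola. Of these, lovit and lola had 1 read each in control replicate 1. All 10 had an edgeR adjusted p of 0.194, and DESeq2 adjusted p-values from 3.17e-06 to 4.44e-05.

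In the other direction, 5 regions had 0 counts in every switched library. They lay in SA1, which encodes a cohesin subunit (2L, 6950905 to 6950975; at least 134-fold lower), CG45263 (3R, 8460610 to 8460680; at least 162-fold lower), CG45075, and at 2 places of X outside genes. For that region of CG45263 the counts were 0, 0 and 0 in switched libraries, against 146, 86 and 146 in control libraries. The edgeR adjusted p of these 5 regions was also 0.194. CG45263 and CG45075 each hold 2 regions, and over both regions the groups overlapped. Summed, CG45263 had 18, 25 and 198 counts in switched libraries, against 146, 86 and 192 in control libraries. CG45075 had 27, 2 and 37 counts in switched libraries, against 48, 63 and 25 in control libraries. The next 5 lower regions had adjusted p-values of 0.693 or more in edgeR and of 0.0749 or more in DESeq2, and were read in some switched library. CG34353 (3R, 27837388 to 27837458) had 0, 27 and 0 counts in switched libraries, against 119, 282 and 227 in control libraries. HtrA2, which encodes a mitochondrial protease, had a nearby region with 5, 2 and 0 counts in switched libraries, against 108, 26 and 13 in control libraries. Doa, which encodes a LAMMER kinase that acts on splicing factors, had a region with 24, 1 and 4 counts in switched libraries, against 82, 91 and 33 in control libraries. Over its 2 regions Doa had 133, 234 and 226 counts in switched libraries, against 212, 242 and 99 in control libraries, and the groups overlapped. CG7137 had 0, 3 and 0 counts in switched libraries, against 35, 38 and 30 in control libraries. A scaffold region of 227 bp, with 9, 2 and 2 counts in switched and 30, 39 and 52 in control libraries, completed the 5. None of the 10 lower regions was at a gene end, but gene ends made up only 21.3% of tested arm regions, so few were due among 10. Of all tested gene-end regions 11 were lower and 35 higher with groups apart.

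Regions read in all 6 libraries were ranked as well, since their fold changes do not rest on a count of 0. Those named were picked for groups apart and a large fold change, so their separation is not a test. Groups were apart at 37 higher (4.23%) and 44 lower (5.03%) of the 874 tested regions of this kind. The 8 with the largest higher values lay in or at sls, zpg, Sobp, Cdep, CG31626 and CG18304 and on 2 scaffolds. In sls, which encodes the titin-like spring protein of muscle, a region (3L, 2065568 to 2065678) had 154, 240 and 202 counts in switched libraries, against 2, 4 and 23 in control libraries. That is 1095 ± 451 CPM in switched libraries, against 57.3 ± 59.7 CPM in control libraries (SD, n = 3 each), with a log2 fold change of 4.22 ± 1.18 (SE) and an adjusted p of 0.218 in edgeR and 0.0042 in DESeq2. At the gene end of zpg, a germline gap junction gene (3L, 6605580 to 6605706), the counts were 140, 152 and 195 in switched libraries, against 19, 1 and 4 in control libraries. The fitted log2 fold change of 3.92 ± 1.33 (SE) had an adjusted p of 0.526 in edgeR and 0.0282 in DESeq2. These 2 were the regions read in all 6 libraries that DESeq2 called. A region of Cdep had 53, 39 and 25 counts in switched libraries, against 1, 2 and 4 in control libraries, with a DESeq2 adjusted p of 0.115. Over its 2 regions Cdep had 214, 120 and 402 counts in switched libraries, against 195, 399 and 159 in control libraries. The gene as a whole thus lay the other way, at -0.66 ± 0.69 with overlapping groups. Of the 8 with the largest lower values 6 lay on scaffolds, and 5 of these 6 overlap the gut table. One of them had 91, 13 and 1 counts in switched libraries, against 82, 151 and 373 in control libraries, and the others were less read. The remaining 2 were the region of Doa and a gene end of CG5783, with 6, 7 and 40 counts in switched libraries, against 64, 83 and 86 in control libraries.

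**Figure D4:**
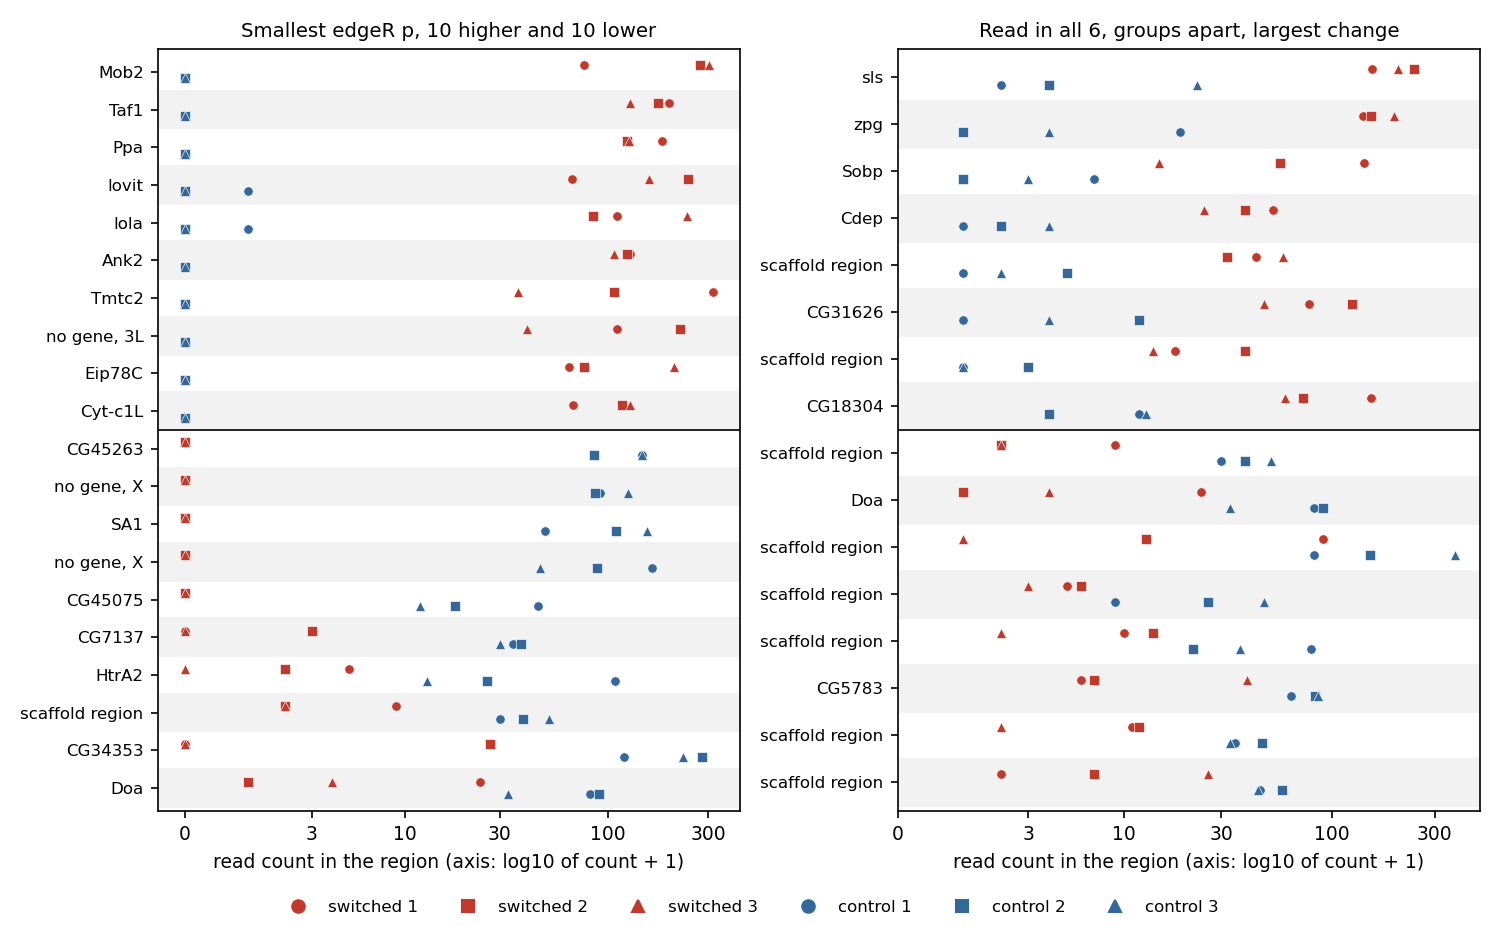
Read counts (x axis, log10 of count + 1) in each library labelled fat body for the regions with the smallest edgeR p (left) and for the regions read in all 6 libraries whose groups did not overlap (right), named by gene; regions above the line were higher and regions below it lower in switched libraries, red points are switched and blue points control. On the left most regions had 0 counts throughout one group; on the right sls and zpg were the furthest apart.

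Summed by gene, edgeR called 0 of 850 tested genes (0.0%; smallest adjusted p 0.177). At an unadjusted p under 0.05, 40 genes were higher in switched libraries (4.71%) and 5 lower (0.588%), and DESeq2 called 28 higher (3.34% of the 838 genes it gave an adjusted p) and 1 lower, SA1 (0.119%). With 1 library left out these edgeR counts ran from 33 to 90 higher and 4 to 29 lower, with 33 higher and 23 lower without switched replicate 1 and 41 higher and 29 lower without switched replicate 3. Of all tested genes 63.9% had a log2 fold change above 0, with a median of 0.51. Groups did not overlap at 113 genes higher in switched libraries (13.3%) and 49 lower (5.76%). The genes with the smallest p were Taf1, Ppa, Ank2, lola and Cyt-c1L on the higher side. On the lower side they were SA1, CG34353, CG7137, HtrA2 and CG30440. Most of these also led among single regions, and 780 of the 964 genes hold 1 region. Mob2 and CG45263, which held the regions of smallest p in each direction, were not among them. Summed by gene, DESeq2 called neither of these, nor Tmtc2, lovit or Eip78C, whose single regions also led. The counts of gene groups below stand against these values, and against the 6.9% of all protein-coding genes (964 of 13962) that had a region. The share of nuclear counts at a list did not overlap between the groups for 8 of the 22 lists, all 8 higher in switched libraries and 0 lower: TOR and growth, chromatin remodellers, lipid, detoxification, oenocyte, haemocyte, muscle and ovary genes.

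Of 19 FOXO and insulin pathway genes 5 had a region (26.3%), and 4 of them were above 0 and 1 below with 0 past the test. Thor, which FOXO is known to induce and which encodes the translation inhibitor 4E-BP, had 108, 94 and 64 counts in switched libraries, against 1, 0 and 68 in control libraries. Control replicate 3 thus stood with the switched libraries, and the log2 fold change was 1.84 ± 1.83 (SE; edgeR adjusted p = 0.889). InR, the insulin receptor gene, had 110, 120 and 371 counts in switched libraries, against 224, 86 and 348 in control libraries, and the groups overlapped (-0.60 ± 0.74). The region near the native foxo gene, which does not check the UAS-foxo transgene, had a log2 fold change of 1.31 ± 1.42. In the TOR and growth list 3 of 19 genes had a region, all above 0, and the list held 0.130% ± 0.036 of nuclear counts in switched libraries, against 0.060% ± 0.024 in control libraries with groups apart. Its highest member was Lkb1, the kinase that activates AMPK, with 92, 56 and 111 counts in switched libraries, against 36, 10 and 0 in control libraries (1.84 ± 1.71).

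Of 20 hormone receptor and ecdysone genes 9 had a region, of which 7 were above 0, 2 below and 1 had an unadjusted p under 0.05. That one was Eip78C, an ecdysone-induced nuclear receptor gene, with 1236 ± 98.2 CPM in switched libraries, against 93.2 ± 148 CPM in control libraries (SD, n = 3 each) over its 2 regions. The fitted log2 fold change of 3.73 ± 1.498 (SE) had an adjusted p of 0.695 in edgeR and 0.147 in DESeq2. EcR, which encodes the ecdysone receptor, had 235, 82 and 850 counts over 4 regions in switched libraries, against 477, 387 and 192 in control libraries, with the groups overlapping (-0.57 ± 0.78). The median of the list was 0.53, close to the 0.51 of all tested genes.

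Heat and oxidative stress genes were represented by 8 of 24, with 5 above 0 and 3 below. Nmnat, which encodes an NAD-synthesising enzyme that also protects neurons, had 143, 48 and 144 counts in switched libraries, against 0, 0 and 0 in control libraries, at least 86.8-fold higher. Atf3, a stress-responsive bZIP factor gene, had 188, 53 and 50 counts in switched libraries, against 0, 0 and 1 in control libraries. DESeq2 called both (adjusted p of 0.000192 and 0.00156) and edgeR neither (0.177 each). Keap1, the repressor of the antioxidant factor CncC, had a log2 fold change of -0.79 ± 0.88. Hsp70Ba is one of several near-identical heat shock gene copies, so its 666 ± 296 CPM in switched libraries, against 1132 ± 88.8 CPM in control libraries, may include reads of other copies. Another copy, Hsp70Bc, which is in no list and was added after its values were seen, lay the other way with 41, 78 and 73 counts in switched libraries, against 5, 0 and 0 in control libraries (edgeR adjusted p = 0.883). Detoxification was represented by Mdr65 alone of 17 listed genes, an ABC transporter of the blood-brain barrier, with 295, 60 and 60 counts in switched libraries, against 0, 3 and 0 in control libraries (6.38 ± 1.97; adjusted p 0.25 in edgeR and 0.00244 in DESeq2).

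Among metabolic, immune and protein homeostasis genes 0 members passed the test by either tool. Of 25 lipid genes 2 had a region (8.0%), both above 0, such as Acsl, a long-chain acyl-CoA synthetase gene, with 38, 80 and 171 counts in switched libraries, against 15, 0 and 69 in control libraries (1.49 ± 1.67). Of 18 carbohydrate genes 5 had a region (27.8%) and 4 were tested and split evenly in direction. Mondo, the sugar-sensing partner of Mlx, had 47, 17 and 113 counts in switched libraries, against 226, 74 and 138 in control libraries. Its groups did not overlap in CPM, yet the log2 fold change of -1.93 ± 0.97 (SE) did not pass (adjusted p of 0.889 in edgeR and 0.344 in DESeq2). UGP, which makes UDP-glucose for glycogen, lay the other way at 1.90 ± 1.49 with overlapping groups. Of 25 immune genes Tl, the Toll receptor gene, alone had regions, at -0.39 ± 0.95. Of 18 autophagy genes 3 were tested, 1 above 0 and 2 below, Atg8a at -1.01 ± 0.91. Of 12 genes of the unfolded protein response Xbp1, which encodes its main transcription factor, alone had a region, with 10, 34 and 54 counts in switched libraries, against 0, 9 and 0 in control libraries.

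Chromatin genes lay on both sides of 0 in the fit. Of 18 Polycomb and trithorax genes 6 were tested, 4 above 0 and 2 below. The Polycomb repressor genes ph-p and Psc lay on opposite sides, at 1.197 ± 0.90 and -0.57 ± 0.72 (log2 fold change ± SE). Of 19 chromatin remodeller genes 4 were tested, 2 above 0 and 2 below, and the list held 0.200% ± 0.011 of nuclear counts in switched libraries, against 0.149% ± 0.034 in control libraries with groups apart. The Brahma complex subunit gene mor was highest at 1.95 ± 1.78, and kis, which encodes a CHD remodeller, lay at -0.27 ± 1.18. Heterochromatin genes had 1 tested member of 15, the SUMO ligase gene Su(var)2-10 at 1.53 ± 1.46. Of 10 clock genes 3 were tested, with the clock repressor gene cwo at 1.27 ± 1.60 and vri at -1.05 ± 1.17.

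Markers of 4 other cell types were among the 8 lists whose share was higher in every switched library. Haemocyte markers had 3 of 14 members with a region, all above 0, and held 0.159% ± 0.085 of nuclear counts in switched libraries, against 0.026% ± 0.032 in control libraries with groups apart. The phagocytic receptor gene eater had 57, 38 and 97 counts in switched libraries, against 8, 0 and 2 in control libraries (3.64 ± 1.78; edgeR adjusted p = 0.889), whereas Hml and NimC1 had 0 regions. Groups were apart at eater and Col4a1 but overlapped at srp, which is also a fat body marker. In switched replicates 2 and 3 and control replicate 1, srp had the most counts of the list, 274, 239 and 66. Muscle markers had 4 of 17 members with a region, 3 above 0 and 1 below. They held 0.263% ± 0.036 in switched libraries, against 0.139% ± 0.016 in control libraries with groups apart. Over both of its regions sls had 210, 258 and 328 counts in switched libraries, against 74, 70 and 26 in control libraries, a log2 fold change of 1.68 ± 0.82 that is smaller than that of the single region above. Groups overlapped at the other muscle markers with a region, Mef2, Prm and Mlp84B, the last below 0 at -0.06 ± 1.42. Mhc, the muscle myosin gene, had 0 regions. Ovary markers had 2 of 15, 1 above 0 and 1 below, and held 0.109% ± 0.013 in switched libraries, against 0.045% ± 0.042 in control libraries. The higher one was zpg, and Vml, a vitelline membrane gene, had 76, 41 and 22 counts in switched libraries, against 51, 0 and 133 in control libraries. Oenocyte markers had 2 of 10 and held 0.102% ± 0.038 in switched libraries, against 0.030% ± 0.030 in control libraries. Each gene alone had overlapping groups. Cpr had 148, 0 and 270 counts in switched libraries, against 0, 13 and 0 in control libraries. For svp they were 95, 101 and 1 in switched libraries, against 82, 26 and 0 in control libraries. These lists were higher in every switched library, each through 2 to 4 genes, and their part in the other differences was not tested.

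Fat body and gut markers did not separate the groups. Fat body markers held 0.177% ± 0.038 in switched libraries, against 0.060% ± 0.072 in control libraries, with control replicate 1 among the switched values. Lsp2, a larval serum protein gene, had 145, 0 and 101 counts in switched libraries, against 27, 27 and 9 in control libraries. The GATA factor gene srp, which serves fat body and haemocytes alike and stands in both lists, had 42, 274 and 239 counts in switched libraries, against 66, 0 and 9 in control libraries (2.41 ± 1.55). Gut markers held 0.274% ± 0.025 in switched libraries, against 0.314% ± 0.165 in control libraries, and of 9 tested members 4 were above 0 and 5 below. The protease gene Jon99Cii, which has near-identical neighbours that may share its reads, had 44, 89 and 35 counts in switched libraries, against 0, 9 and 1 in control libraries, and the homeobox gene Ptx1 had 90, 13 and 41 counts in switched libraries, against 103, 39 and 189 in control libraries. Neuron markers split likewise, with the calcium channel gene cac at 1.74 ± 1.97 and the potassium channel gene Sh with 0, 2 and 27 counts in switched libraries, against 13, 34 and 119 in control libraries. The single Malpighian tubule marker with a region, ct, had 35, 0 and 101 counts in switched libraries, against 107, 150 and 72 in control libraries.

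**Figure D5:**
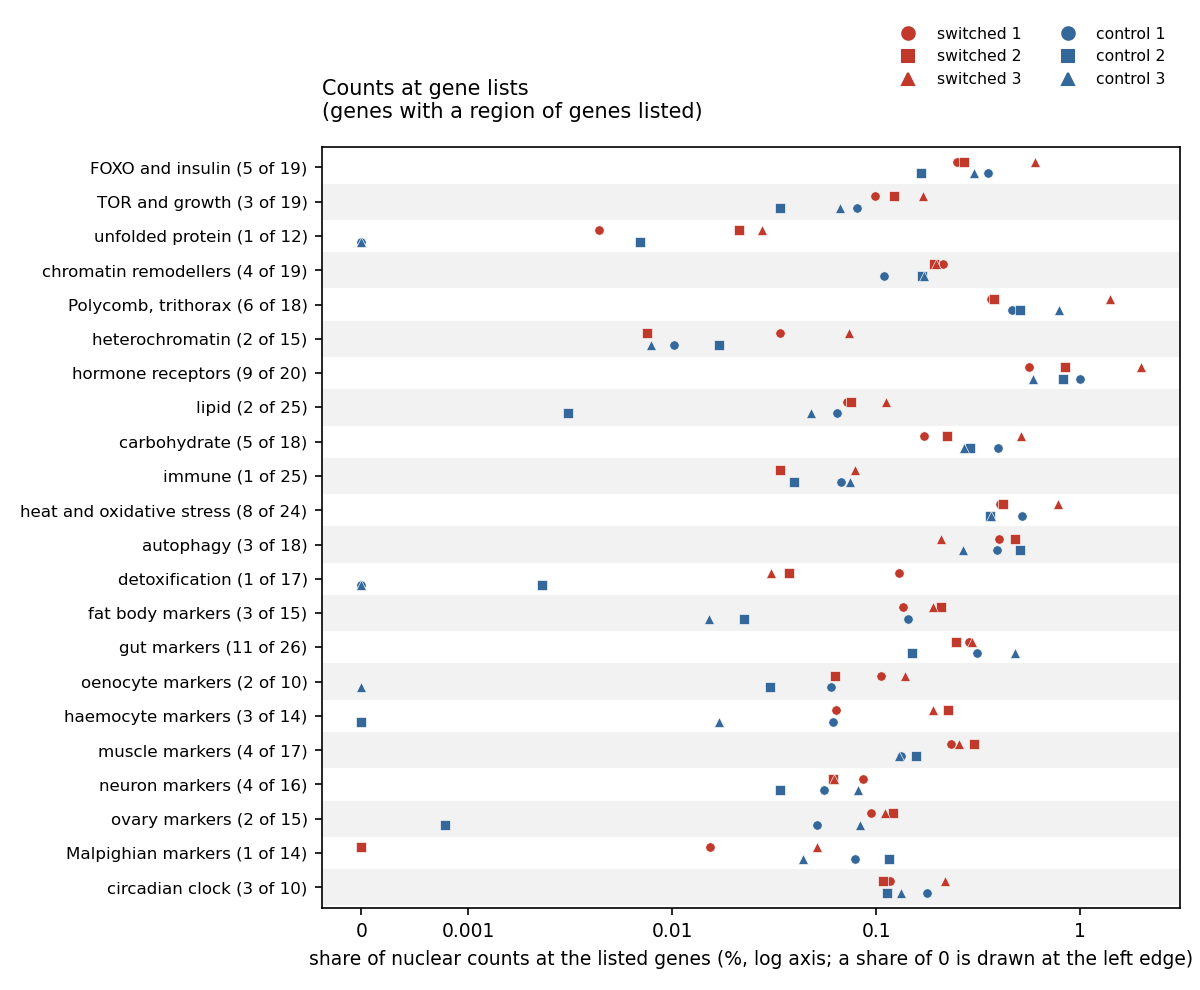
Share of nuclear counts at the genes of each list (x axis, percent, log scale, with a share of 0 drawn at the left edge) in each library labelled fat body; lists run down the page with the number of genes that have a region of those listed, red points are switched and blue points control libraries. Haemocyte markers (0.159% in switched, against 0.026% in control) and muscle markers (0.263%, against 0.139%) were higher in every switched library, while FOXO and insulin genes, hormone receptors and gut markers overlapped. The haemocyte list includes srp, which is also a fat body marker.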

How the data were processed

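Read counts for each region were deposited unscaled by the authors; MACS2, featureCounts, DESeq2, Trimmomatic and FastQC are named in the submitters' processing notes, without versions. For aligner, build, duplicate removal and any Tn5 shift, nothing is given in the sources used here, and retained duplicates would widen the spread between libraries. The build was taken as Release 6, since 44.7% of arm regions labelled gut fell at ends of its genes, against 19.2% to 21.8% after moves of 5000 or 10000 bp either way. Labelled fat body the shares were 14.1%, against 12.6% to 13.0%. Genes came from a RefSeq table of 13962 protein-coding genes, which assigned 1347 regions to 964 genes.

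Mitochondrial regions were left out before scaling. Counts were fitted with edgeR 4.0.16 under R version 4.3.3 (filterByExpr set to 10 counts and a total of 15, TMM on nuclear totals, quasi-likelihood F test, Benjamini-Hochberg adjusted p under 0.05), and with DESeq2 1.42.0 as the alternative. The SE is the log2 fold change over the square root of F. Class values used exact two-sided permutation tests over libraries. The median log2 fold change of tested regions was 0.27 with TMM, 0.21 with library totals and 0.33 with DESeq2 size factors. No 2 libraries agreed within sampling noise.

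Members and gene lists were chosen with earlier results of these data known. Named were 10 regions of smallest p in each direction, the 8 higher and 8 lower with reads in all 6 libraries and groups apart, the 5 higher and 5 lower genes with the smallest p, list members with an unadjusted p under 0.05 or extreme in their list, and the most read regions. Other genes, named for having no region or many, were chosen after their values were seen.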

Additional observations from a re-analysis of the deposited data

Results flagged for a closer look

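The difference between switched and control libraries in the share of nuclear counts on regions under 100 bp was 9.06 percentage points larger labelled fat body than labelled gut, which the exact permutation of labels within tissues put at p = 0.005, and at 0.08 after adjustment over 16 classes. Without the shallow gut libraries numbered 1 it was 8.08 points (exact permutation p = 0.0167, adjusted 0.267). The share of gene-end regions read at equal depth differed between the tissues by 19.1 points, and that of regions inside genes by 15.8 points, once the shallow gut libraries were left out (exact permutation p = 0.0333 each), whereas with all gut libraries the p-values were 0.14 and 0.1. Labels were permuted on the assumption of no effect in either tissue. The regions of each tissue's table were called separately, so these differences are between different sets of regions.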

How the results depend on the processing

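edgeR called 0 regions under each scaling, the replicate block and each left-out library, over arms alone and over regions read in all 6 libraries, with 1 exception: without a filter it called 14. It called 0 genes with library totals, no filter, overlapping regions alone, the replicate block and each left-out library, the gene settings run. DESeq2 called 52 regions and 29 genes, and 51, 51, 62, 125, 126 and 115 regions without switched replicates 1 to 3 and control replicates 1 to 3, fits added after the data were seen. At an unadjusted p under 0.05 edgeR gave 60 to 145 higher and 18 to 49 lower regions with libraries left out. Same-numbered libraries did not pair (correlations of deviations 0.003, -0.031 and -0.066), and the replicate block called 0 regions and 0 genes, with 55 higher and 14 lower regions at that p. The scaffold share differed by -7.61 to 1.04 points with libraries left out, turning without switched replicate 3, and the gene-end share by -2.85 to 1.29 points (higher without switched replicate 1 or 2 or control replicate 2), or 1.48 points with gene ends taken within 1000 bp. Left-out libraries gave -0.094 to 0.0029 points for chromosome 4, -7.48 to 0.68 points for regions outside genes and -0.85 to 3.24 points for regions of 100 bp to under 200 bp, each turning without switched replicate 3. Against the gut, the difference outside genes was 1.17 points without the shallow gut libraries. Regions read outside genes at equal depth differed by -4.88 to 32.8 regions, turning without switched replicate 1, and by -1.75 regions among those in the gut table. Regions read at gene ends differed by 37.2 to 47.7, and inside genes by 84.0 to 121.8. Each turned share belonged to groups that overlap, and the cause was not tested. Of the genes named, kis turned to 0.31 with the replicate block and ran between -0.84 and 0.74 with libraries left out, and Vml turned to 0.33 with the block and ran between -1.28 and 0.295 with libraries left out. The named regions kept their direction in all settings run. Over all 86 list members and leading genes, 26 changed direction in at least 1 setting and edgeR called 0. Depth limits single regions, since 1031 of 3427 were read in all 6 libraries.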

Other observations

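The 5 genes with the most regions are given, chosen for that number. Myo81F, a myosin gene spread over pericentric sequence, held 53 regions with 907, 884 and 840 counts in switched libraries, against 731, 675 and 429 in control libraries. Pzl held 20 regions with 367, 157 and 67 counts in switched libraries, against 65, 35 and 176 in control libraries. CG17684 held 19 with 72, 140 and 125 counts in switched libraries, against 126, 77 and 159 in control libraries. Of the regions of Myo81F, Pzl and CG17684, 37, 13 and 11 were read in switched libraries, against 39, 12 and 12 in control libraries. The transporter gene lovit held 16 with 200, 264 and 269 counts in switched libraries, against 63, 20 and 85 in control libraries. The gene l(3)80Fg held 8 with 315, 203 and 526 counts in switched libraries, against 33, 52 and 158 in control libraries, and all 8 were read in a switched library but 3 in a control library. These raw sums were not tested.

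Across the 3427 nuclear regions, Spearman correlations of counts were 0.622 to 0.648 between switched libraries, 0.524 to 0.555 between control libraries and 0.468 to 0.523 between the groups. Across the 1031 regions read in all 6 libraries they were 0.473 to 0.537 between switched libraries, 0.542 to 0.561 between control libraries and 0.467 to 0.574 between the groups. These values describe regions of the same libraries, which are not independent replicates, and depth differs between the groups.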
